A study of Homo sapiens with 24 samples.

Results

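The integrin genes and the laminin chains other than those of laminin-332 were followed across 24 two-colour arrays of human cancer cell lines. The members were listed by name as 17 integrin α chains, 7 integrin β chains and 9 laminin chains, 33 genes in all, and each was found by its symbol among the non-control spots. They were 33 of the 19900 named genes on the first array design and of the 20446 on the second. Of the 33, 22 had 1 probe on the first design and 11 had several, and a gene with several was read by its brightest probe, which was the same on both designs for 32 members. The chains of laminin-332 and of its main receptor α6β4 were not members.

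Integrins are receptors made of 1 α and 1 β chain that tie cells to the matrix outside and to the actin skeleton inside, and the pairing of the chains sets the ligand. The β1 chain pairs with many α chains and makes receptors for collagens, laminins and fibronectin, while αV pairs with β chains such as β3, β5, β6 and β8 and binds fibronectin, vitronectin and the latent form of TGF-β. Laminins are trimers of an α, a β and a γ chain and form the sheet of the basement membrane on which epithelia rest. In carcinomas both families are studied for their part in anchorage, migration and invasion.

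Each array carried the RNA of treated cells in Cy5 and of control cells of the same line in Cy3, and the dyes were never swapped. PC3, DU145 and LNCap are prostate cancer (PCa) lines, A498 and 786O are renal cell carcinoma lines and FaDu and SAS are squamous carcinoma lines of the head and neck. The 16 arrays of the first design held genistein in PC3 and DU145 against no treatment, si-CAV2 in A498 and 786O, miR-145 in PC3, DU145 and LNCap, miR-375 in FaDu, si-LAMB3 in FaDu and SAS, wogonin in SAS and FaDu against DMSO, miR-23b, miR-24 and miR-27b in PC3 and miR-29a in SAS. The 8 arrays of the second design held miR-143 and si-GOLM1 in DU145 and PC3, miR-27b in 786O and A498 and CXCL10 in 786O at 12 h and 24 h against no treatment. The transfected cells were set against cells transfected with a control siRNA or miRNA. The study's methods give the genistein control as vehicle, where the labels call it untreated. Each line and treatment had 1 array, so that all tests of a treatment rest on the spread between lines, or between times for CXCL10. That spread was estimated over all treatments of an array design together. An SE is therefore not the spread of the treatment's own arrays alone. Nothing in the labels separates cultures. RNA came from whole cultures, so that fewer cells with a transcript and less of it per cell cannot be told apart.

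The miRNAs are shown because 7 of them were transfected, and a miRNA recognises its targets mainly through its seed, bases 2 to 8, here in capitals. The labels do not name the arm, and the sequences are the commonly used mature arms as RefSeq (GRCh38.p14) gives them, 5′ to 3′:
hsa-miR-145-5p: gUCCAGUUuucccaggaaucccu
hsa-miR-375-3p: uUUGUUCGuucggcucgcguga
hsa-miR-143-3p: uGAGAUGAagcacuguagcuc
hsa-miR-23b-3p: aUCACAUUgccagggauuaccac
hsa-miR-24-3p: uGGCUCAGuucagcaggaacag
hsa-miR-27b-3p: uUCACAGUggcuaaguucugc
hsa-miR-29a-3p: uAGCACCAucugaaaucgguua
The 7 miRNAs have 7 different seeds. In GRCh38.p14, miR-23b (chr9:95085265-95085287), miR-27b (chr9:95085505-95085525) and miR-24 (chr9:95086064-95086085) lie together on the forward strand of chromosome 9, and miR-143 (chr5:149428978-149428998) and miR-145 (chr5:149430661-149430683) lie together on the forward strand of chromosome 5. miR-24 has a further copy on the reverse strand of chromosome 19 (chr19:13836289-13836310). miR-375 lies on chromosome 2 (chr2:219001648-219001669) and miR-29a on chromosome 7 (chr7:130876748-130876769), both on the reverse strand.

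The siRNA arrays were checked by their target. CAV2 had a log2 ratio of -3.80 in A498 and -3.20 in 786O, and GOLM1 of -3.02 in DU145 and -4.15 in PC3. LAMB3, a chain of laminin-332, had -2.50 in FaDu and -0.89 in SAS, whereas on the 22 arrays of other treatments that measured it LAMB3 lay between -2.11 and 4.21 with a median of -0.12, so that the SAS value was within their range. Marker genes of the labelled tissues were read in the control channels. The renal list (PAX8, PAX2, CDH6, LRP2) was well above background in 16 of 16 values in 786O and 8 of 8 in A498 and the squamous list (KRT5, KRT14, TP63, KRT6A, SFN) in 15 of 15 in FaDu and 14 of 15 in SAS. LRP2 and SFN were, however, well above background in every line, so these counts alone do not separate the lines. KLK3, the prostate-specific antigen, had a level (log2 control signal minus the array's 75th percentile) of 2.83 in LNCap and of -6.03 to -2.97 in the other lines, PC3 and DU145 included, where it was also well above background in some controls. For the other cell types that express integrins, PDGFRB was well above background in 0 of 24 control channels, CD3E in 1 and PPBP in 1, whereas PTPRC was in 18 and LCP1, CD14, GP9 and DES in 24. The part of such transcripts in the member values was not tested.

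The log2 ratio of treated over control RNA was measured for a member on an array where its probe was well above background, as the scanner software calls it, in at least 1 channel. That was so in 626 of 792 values, 546 of them in both channels, 75 in the treated channel alone and 5 in the control channel alone. ITGA8 and ITGAL, the α chain of the lymphocyte integrin LFA-1, were not well above background on any array. ITGAD was measured on 5 arrays, ITGAX on 4 and LAMB4 on 3. These 3 had few values in both channels, namely 0, 3 and 1.

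Past a log2 ratio of 1.0 in either direction, a doubling or halving, lay 82 of the 626 values, 50 higher and 32 lower, beside 8.61% of the values of all genes, and they belonged to 27 members. With both channels well above background there were 49 of 546, 22 higher and 27 lower, in 21 members, beside 5.98% for all genes. Of the others, 28 rested on the treated channel alone and 5 on the control channel alone, and a dye effect and a treatment effect cannot be told apart for them without swapped dyes. ITGB1, the most shared β chain, was measured on all 24 arrays and stayed between -0.97 and 0.63. ITGA9, the α chain of a tenascin receptor, stayed between -0.36 and 0.49, and LAMA5, the α chain of laminins of mature epithelial basement membrane, stayed between -0.995 and 0.66 by its brightest probe, while its other probe had -1.90 for miR-375 in FaDu, -1.42 for miR-24 in PC3 and -1.04 for si-LAMB3 in SAS. ITGB8, which pairs with αV to release TGF-β, spanned -2.66 to 2.56 over 21 arrays, both ends with 1 channel not well above background, and -2.18 to 1.05 over the 19 arrays with both channels. It had the most values past 1.0 among the members, 2 higher and 6 lower.

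The values were unevenly spread over the slides. The first slide held 27 of the 82 values, the second 50 and the third, with the second design, 5. As shares of the measured values these were 12.8%, 24.0% and 2.42%, where all genes on the same slides had 10.5%, 13.4% and 2.16%. Slide and treatment cannot be told apart, since no treatment was split between slides within a line.

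**Figure D1:**
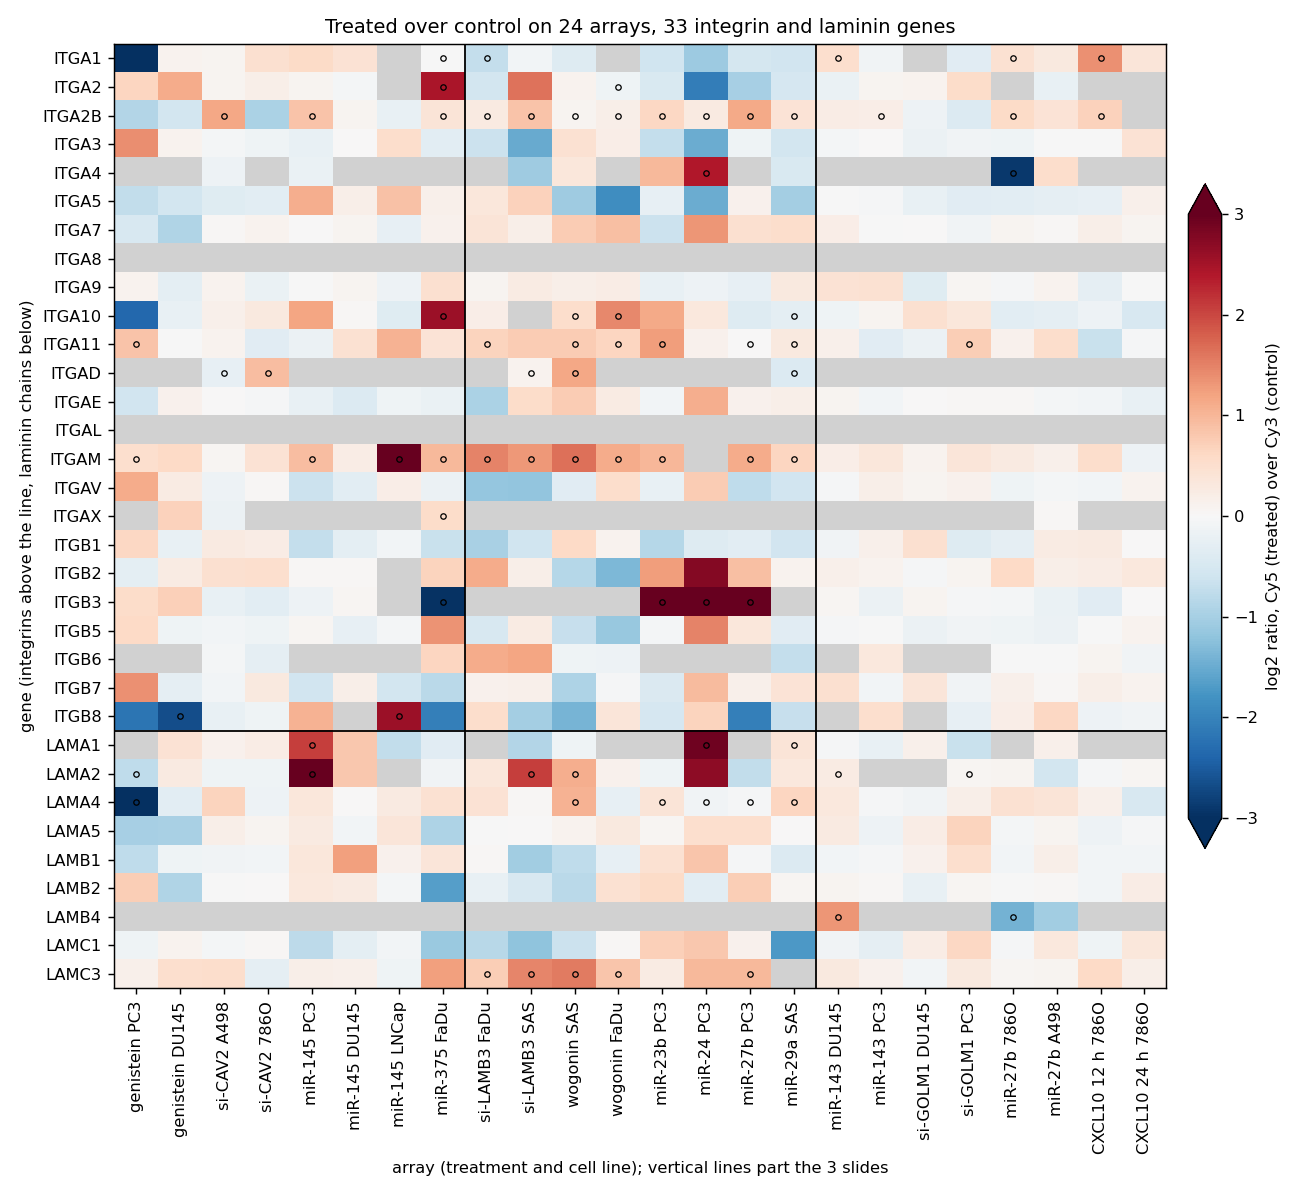
Log2 ratio of treated over control RNA for the 33 members (rows) on the 24 arrays (columns, grouped by treatment), with higher and lower values in opposite colours. Open circles mark values with 1 channel not well above background and grey cells values with neither, and the 8 columns of the second design are nearly without colour, with 5 of the 82 values past 1.0.

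In PCa cells treated with genistein, an isoflavone of soy, 3 members fell and 1 rose over PC3 and DU145. That was 4 of 25 tested members by limma at an adjusted p of 0.05, beside 8.73% of all genes, and 10 members had an unadjusted p under 0.05. The median log2 ratio was -0.09 for the members and 0.04 for all genes. LAMA5 had -0.995 in PC3 and -0.97 in DU145, a mean of -0.98 ± 0.14 (SE, n = 2 arrays, limma adjusted p = 0.0102). Both lines were thus alike at this probe, which lies at chr20:60920556-60920615 (hg19), whereas the other LAMA5 probe (chr20:60885302-60885361) had 0.22 in PC3 and -0.68 in DU145 with a mean of -0.23 (limma adjusted p = 0.696). The fall of LAMA5 therefore rests on 1 of 2 probes.

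ITGB8 had -2.18 in PC3 and -2.66 in DU145, where the treated channel was not well above background and the fall was at least 4.07-fold. Its mean was -2.42 ± 0.61 (SE, limma adjusted p = 0.0441), and it was -0.97 and not called with normexp and loess. ITGA7, which pairs with β1 as a laminin receptor known best from muscle, had -0.48 and -0.90 with a mean of -0.69 ± 0.15 (limma adjusted p = 0.0290). ITGB3, the partner of αV in the vitronectin receptor, was the member that rose, with 0.55 and 0.71 and a mean of 0.63 ± 0.12 (limma adjusted p = 0.0207). Its mean was 0.19, and no longer called, once the mean over the other treatments on the design was subtracted.

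PC3 had larger values than DU145 for several integrins. With both channels well above background, 6 of 21 members passed 1.0 in PC3, beside 12.6% of all genes, and 1 of 26 in DU145, beside 8.84%. ITGA1, which with β1 binds collagen IV and laminin, was at -3.38 ± 0.38 (the software's error for 1 array) in PC3 and 0.12 in DU145. ITGA10, another collagen receptor chain, was at -2.37 in PC3 and -0.21 in DU145. Both probes were brighter in the untreated PC3 of this array than in other PC3 controls. On the scale of log2 control signal minus the array's 75th percentile, ITGA1 was at 1.77 here, -1.29 on the miR-145 array and -0.35 on the miR-23b, miR-24 and miR-27b arrays averaged, and ITGA10 was at 0.50, -0.94 and 0.15. The part of the control in these ratios was not tested.

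The higher values in PC3 were ITGA3, a laminin receptor chain of epithelia, with 1.39 against 0.10 in DU145, ITGB7, a β chain of leukocyte integrins, with 1.37 against -0.28, and ITGAV with 1.10 against 0.26. ITGA2, the α chain of the main collagen receptor of epithelia, was past 1.0 in DU145, with 1.11 against 0.65 in PC3. None of these 4 was called over both lines. LAMA4, an α chain of laminins of vessels and muscle, was at -3.48 in PC3 by its brightest probe (at least 5.83-fold lower, treated channel not well above background), but its other 3 probes there ranged from -0.87 to 0.43.

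Among the genes that carry the integrin signal, 2 of 31 tested adaptors and kinases rose and 2 fell. KRIT1, which takes part in the control of β1 activation, rose by 0.91 ± 0.21 (limma adjusted p = 0.0341) and PARVA, an actin-binding partner of the integrin-linked kinase, by 0.89 ± 0.22 (limma adjusted p = 0.0443). PTK2B, a kinase related to FAK, fell by 0.85 ± 0.14 (limma adjusted p = 0.0133) and VCL, vinculin, by 0.59 ± 0.14 (limma adjusted p = 0.0403). None of the 15 tested matrix ligands or the 6 other laminin receptors was called.

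**Figure D2:**
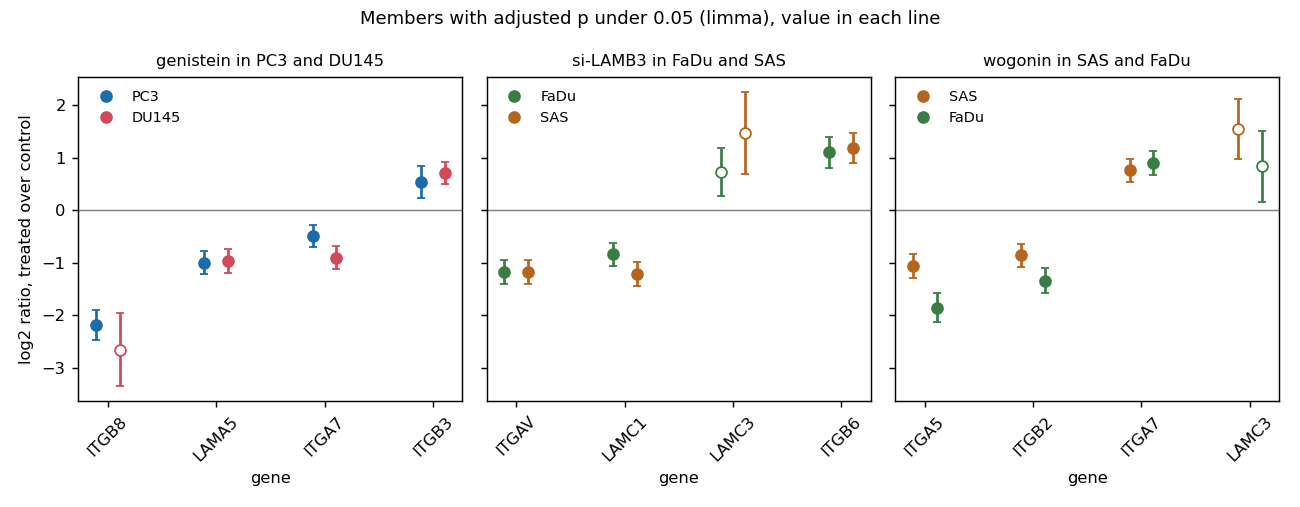
Log2 ratio of the 12 member calls under genistein, si-LAMB3 and wogonin, with 1 point per cell line, bars for the software's error of 1 array and open points where 1 channel was not well above background. Both lines lie on the same side of 0 in each of the 12 calls, and the LAMC3 points are all open.

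In the squamous lines transfected with si-LAMB3, ITGAV and LAMC1 fell and ITGB6 and LAMC3 rose. These were 4 of 24 tested members, beside 8.23% of all genes, with 9 members at an unadjusted p under 0.05 and a median of 0.15 for the members against 0.03 for all genes. ITGB6, the epithelial partner of αV that binds fibronectin and latent TGF-β, had 1.11 in FaDu and 1.19 in SAS with a mean of 1.15 ± 0.12 (SE, n = 2 arrays, limma adjusted p = 0.00256). The ratio was past 1.0 in both lines. With normexp and loess the mean was 0.38 and was still called.

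ITGAV itself had -1.17 in FaDu and -1.17 in SAS, a mean of -1.17 ± 0.28 (limma adjusted p = 0.0411). LAMC1, the γ chain of most laminins, had -0.84 and -1.22, a mean of -1.03 ± 0.22 (limma adjusted p = 0.0295). Both were lower in each line, but neither was called once the mean of the other treatments on the design was subtracted, where they had -1.15 and -0.81. LAMC3, a γ chain of more restricted expression, had 0.73 and 1.47 with a mean of 1.10 ± 0.26 (limma adjusted p = 0.0414). Its control channel was not well above background in either line, so the rise was at least 1.65-fold by the bound, and it came to 0.12 and was not called with normexp and loess.

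SAS had more values past 1.0 than FaDu. With both channels well above background there were 8 of 22 members in SAS, beside 10.9% of all genes, and 3 of 20 in FaDu, beside 6.25%. ITGA3, the α3 chain of the laminin-332 receptor α3β1, was at -1.51 in SAS and -0.65 in FaDu (limma adjusted p = 0.0759). LAMB1, the β chain of the classical laminin trimers, was at -1.04 in SAS and 0.03 in FaDu, with a further probe at 0.09 in SAS, and ITGA4, an α chain that binds fibronectin and VCAM1, was at -1.06 in SAS. ITGB2, the β chain of leukocyte integrins, was at 0.19 in SAS and 1.12 in FaDu. Further ITGB2 probes in FaDu were at 0.45 and, with 1 channel not well above background, at 1.18.

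ITGA2 and ITGB8 lay on opposite sides of 0 in the 2 lines. ITGA2 was at -0.56 in FaDu and 1.63 in SAS, and ITGB8 at 0.52 in FaDu and -1.02 in SAS. With 1 array per line the difference between lines was not tested. In SAS, members past 1.0 with the control channel not well above background were LAMA2 at 2.08 (at least 4.22-fold) and ITGAM at 1.29 (at least 2.33-fold).

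The siRNA was aimed at a chain of laminin-332, and LAMB3 itself was not called over both lines. CD151, a membrane partner of the laminin-binding integrins, fell by 0.61 ± 0.15 (limma adjusted p = 0.0439) as 1 of 6 other laminin receptors. Of the 33 adaptors and kinases VCL fell by 0.64 ± 0.14 (limma adjusted p = 0.0330) and SHARPIN, which holds integrins inactive, by 0.69 ± 0.13 (limma adjusted p = 0.0183). None of 14 matrix ligands was called.

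Under wogonin, a flavone, 4 members were called in the same lines, and the treatments were not tested against each other. ITGA5 and ITGB2 fell and ITGA7 and LAMC3 rose, 4 of 24 tested, beside 3.11% of all genes, with 7 members at an unadjusted p under 0.05 and medians of 0.17 for the members and 0.06 for all genes. ITGA5, the α chain of the fibronectin receptor α5β1, had -1.06 in SAS and -1.85 in FaDu with a mean of -1.46 ± 0.25 (SE, n = 2 arrays, limma adjusted p = 0.0228). It was past 1.0 in both lines, and was the 1 member of which that was so under wogonin with both channels well above background.

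ITGA7 had 0.76 in SAS and 0.90 in FaDu with a mean of 0.83 ± 0.15 (limma adjusted p = 0.0279), and was not called once the mean of the design's other treatments was subtracted (0.76). ITGB2 had -0.85 and -1.34 with a mean of -1.10 ± 0.25 (limma adjusted p = 0.0497), close to the limit. A further ITGB2 probe at the other end of the gene had a mean of 0.40 (limma adjusted p = 0.594), so the call rests on 1 probe.

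LAMC3 had 1.56 and 0.84 with a mean of 1.20 ± 0.26 (limma adjusted p = 0.0464), again with the control channel not well above background in either line (at least 1.58-fold), and it was 0.17 and not called with normexp and loess. ITGB5, another partner of αV, had -0.69 in SAS and -1.14 in FaDu and did not pass (limma adjusted p = 0.0654). ITGB8 was at -1.40 in SAS and 0.37 in FaDu. With both channels well above background, 2 of 20 members were past 1.0 in SAS, beside 9.52% of all genes, and 3 of 18 in FaDu, beside 4.60%. Of the partners, KRIT1 rose by 1.30 ± 0.21 (limma adjusted p = 0.0205) and was the 1 call among the 31 adaptors and kinases, 14 matrix ligands and 6 other laminin receptors tested.

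miR-145 was tested in 3 lines on 1 design, and 0 of 21 members were called by limma in PC3, DU145 and LNCap, beside 7.30% of all genes. At an unadjusted p under 0.05 there were 2 members. ITGA5 came nearest, with 1.09 in PC3, 0.18 in DU145 and 0.88 in LNCap and a mean of 0.72 ± 0.20 (SE, n = 3 arrays, limma adjusted p = 0.0670). It was above 0 in all 3 lines and was called with 4 of the other settings, among them normexp with loess.

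With both channels well above background, the other members past 1.0 under miR-145 were each so in 1 line. ITGA10 was at 1.19 in PC3, 0.04 in DU145 and -0.37 in LNCap, ITGA11, a fibroblast collagen receptor chain, at -0.18, 0.45 and 1.04, and LAMB1 at 0.35, 1.24 and 0.12, with a further probe at 0.10 in DU145. ITGB8 was at 1.05 in PC3 and at 2.56 in LNCap (at least 3.06-fold, control channel not well above background) and was not well above background in DU145. Larger values with 1 channel not well above background were LAMA2 at 3.37 in PC3 and ITGAM at 3.05 in LNCap. With both channels there were 3 of 23 members past 1.0 in PC3, beside 11.4% of all genes, 1 of 25 in DU145, beside 3.05%, and 1 of 19 in LNCap, beside 5.63%. VCL rose by 0.48 ± 0.11 (limma adjusted p = 0.0414) and was the 1 adaptor called of 30.

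For si-CAV2 in the renal lines limma called 0 of 28 members, beside 0.131% of all genes, and 0 had an unadjusted p under 0.05. No member passed 1.0 with both channels well above background, 0 of 28 in A498 and 0 of 27 in 786O, beside 0.693% and 0.648% of all genes. The 4 treatments on the second design were likewise without a limma call. There were 0 of 24 members for miR-143, 0 of 23 for si-GOLM1, 0 of 27 for miR-27b in the renal lines and 0 of 24 for CXCL10, beside 0.140%, 0.307%, 0.663% and 0.0900% of all genes. At an unadjusted p under 0.05 they had 1, 5, 4 and 3 members. LAMA5 had a mean of 0.44 ± 0.14 for si-GOLM1 (limma adjusted p = 0.199) and was called with normexp and loess, at 0.63 ± 0.12 (limma adjusted p = 0.0151). Its other probe had a mean of -0.33 (limma adjusted p = 0.283).

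On the second design 1 member passed 1.0 with both channels well above background, LAMB4, a laminin β chain of little known function, at -1.04 ± 0.37 for miR-27b in A498, 1 of 30 members beside 0.705% of all genes. The other 7 arrays of that design had 0 such members of 23 to 25 measured in both channels. Of all genes they had 0.612% (miR-143 in DU145), 0.538% (miR-143 in PC3), 0.201% (si-GOLM1 in DU145), 1.01% (si-GOLM1 in PC3), 0.619% (miR-27b in 786O), 0.325% (CXCL10 at 12 h) and 0.474% (CXCL10 at 24 h). In 786O, ITGA4 was at -2.90 for miR-27b (at least 4.84-fold lower, treated channel not well above background). The control of the CXCL10 arrays in the same line was, however, not well above background for ITGA4. The other ITGA4 probes were well above background in 0 of the 3 786O controls of this design, so the value rests on 1 probe.

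The remaining miRNA arrays, those of miR-375, miR-24, miR-23b, miR-29a and of miR-27b in PC3, had no second line on their design, and their values have no replicate check. For miR-375 in FaDu, 5 of 21 members passed 1.0 with both channels well above background, beside 20.6% of all genes. ITGB8 was at -2.06 ± 0.28, LAMB2, the β chain of synaptic and glomerular laminins, at -1.65 ± 0.25 and LAMC1 at -1.12 ± 0.23. The further LAMB2 probe gave -1.78, so the gene was low by both. ITGB5 was at 1.34 ± 0.24 and LAMC3 at 1.23 ± 0.29. As bounds, ITGA10 was at least 5.92-fold and ITGA2 at least 5.50-fold higher, and ITGB3 at least 3.96-fold lower.

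The array of miR-24 in PC3 had the largest number of members past 1.0 of the 24 arrays, 9 of 21 with both channels well above background, and also the largest share of all genes, 24.6%. The collagen, fibronectin and laminin receptor chains ITGA2 (-2.06 ± 0.31), ITGA5 (-1.50 ± 0.25), ITGA3 (-1.48 ± 0.24) and ITGA1 (-1.10 ± 0.23) were lower. ITGB2 (2.76 ± 0.33), LAMA2, the α chain of muscle laminin (2.68 ± 0.33), ITGB5 (1.496 ± 0.25), ITGA7 (1.32 ± 0.24) and ITGAE, the α chain that binds E-cadherin (1.09 ± 0.23), were higher. As bounds, ITGB3 was at least 11.6-fold, LAMA1, the α chain of embryonic laminin, at least 7.57-fold and ITGA4 at least 5.29-fold higher.

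The miR-23b and miR-27b arrays in PC3 had fewer members past 1.0. For miR-23b they were 2 of 21, beside 7.83% of all genes, ITGA10 at 1.15 and ITGB2 at 1.25. Further ITGB2 probes were at 0.52 and, with 1 channel not well above background, at 0.14 for miR-23b. For miR-27b they were 2 of 19, beside 10%, ITGB8 at -2.05 ± 0.28 and ITGA2 at -1.002 ± 0.24. On the second design, miR-27b in 786O and A498 had ITGB8 at 0.21 and 0.62, and this difference between lines, which is also one between designs, was not tested.

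ITGB3 was high on all 3 of these PC3 arrays, at 3.20 for miR-23b, 3.54 for miR-24 and 3.40 for miR-27b, and at least 4.74-fold, 11.6-fold and 6.02-fold. The controls of the 3 arrays may be 1 RNA, since their signals over 20462 probes correlated at 0.996 with an SD of the difference of 0.21, where pairs with the other PC3 controls had 0.961 to 0.972 and SDs of 0.59 to 0.70. The 3 values are therefore not independent. ITGB3 was not well above background in these controls, whose level averaged -5.55, whereas the PC3 controls of the genistein and miR-145 arrays were at -3.40 and -3.59 and were well above it.

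For miR-29a in SAS, 2 of 20 members passed 1.0, beside 5.75% of all genes. LAMC1 was at -1.71 ± 0.26 and ITGA5 at -1.02 ± 0.23. The LAMC1 control level was 2.35 on this array, below the 3.28 and 3.46 of the other SAS arrays, and its part in the ratio was not tested.

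**Figure D3:**
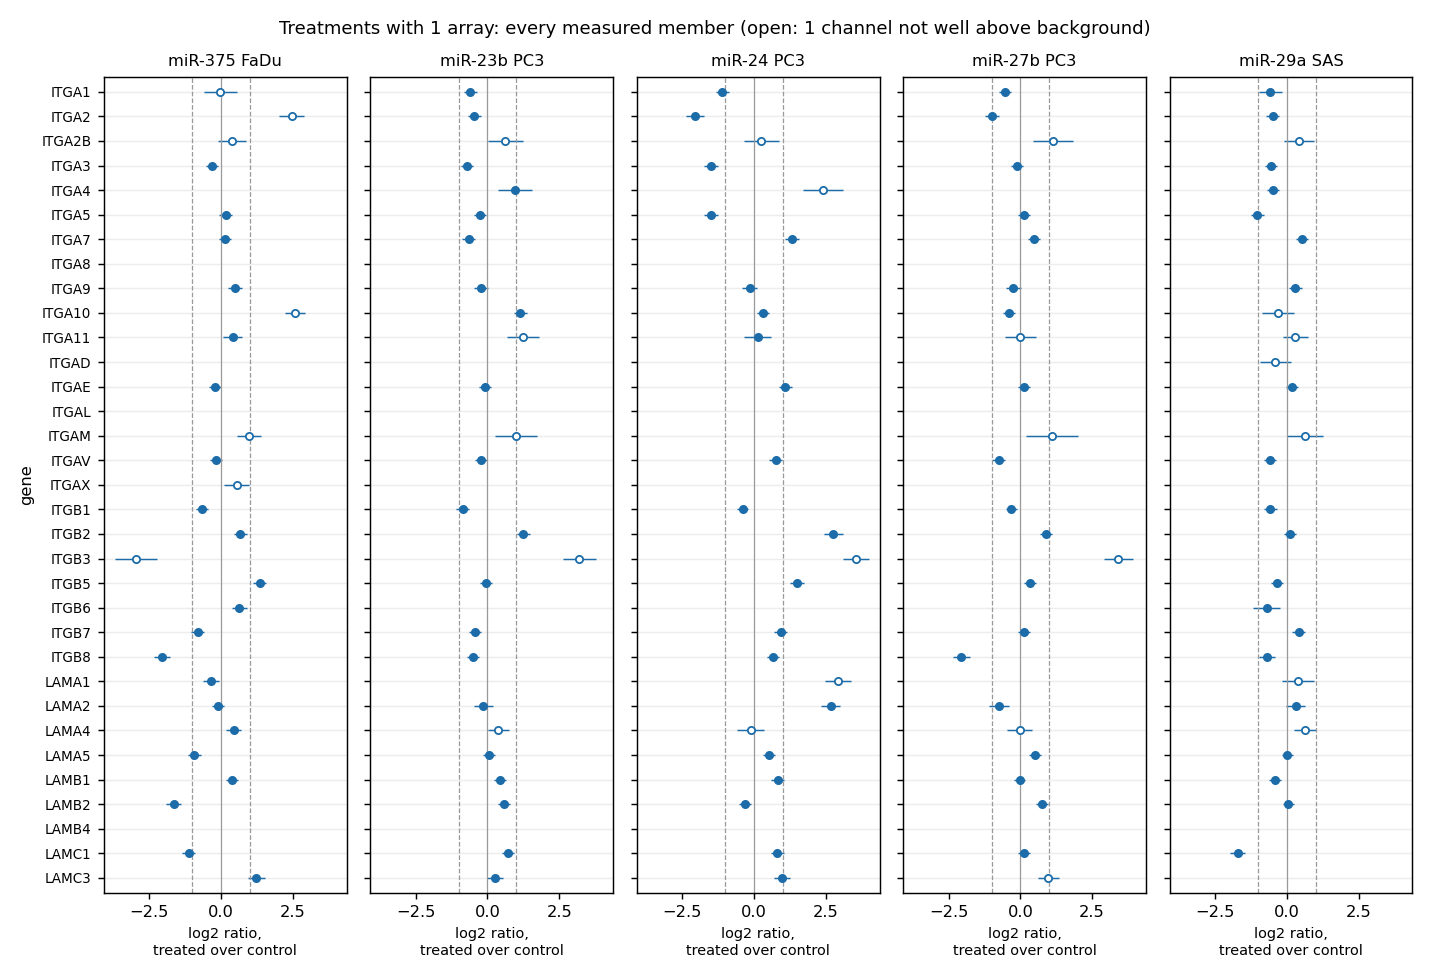
Log2 ratio of every measured member on the 5 arrays of miRNAs without a second line on their design, with bars for the software's error of 1 array, open points where 1 channel was not well above background and dashed lines at 1.0 in each direction. The miR-24 panel has the widest spread, from ITGA2 at -2.06 to ITGB3 at 3.54.

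The control channels were compared between lines to show which chains each line had before treatment. Levels are log2 control signal minus the array's 75th percentile, and they serve to compare lines within a probe and never genes with each other. Differences between lines were common among all genes, and the member counts have to be read against that. The SE and p of these comparisons rest on the spread between the control channels of a line on different arrays. These controls differ in kind (untreated, DMSO, control siRNA or control miRNA). The spread between lines of the same tissue does not enter.

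The squamous lines differed from PC3 and DU145 in 12 of 28 tested members (4 higher, 8 lower), beside 42.5% of all genes. ITGB6 was at -3.77 to -3.23 in the 6 FaDu and SAS controls and not well above background in the 5 PCa controls (at least 3.83-fold, limma adjusted p = 7.5e-07). ITGB1 was at 0.81 to 2.11 in the squamous and 3.01 to 4.38 in the PCa controls, a difference of -2.07 ± 0.27 (SE, limma adjusted p = 0.00023) with no overlap. LAMC3 had a difference of -2.84 ± 0.32 (limma adjusted p = 9.1e-05), but it was well above background in 1 of the 6 squamous controls, and the difference was -0.51 with normexp.

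The other members called between these lines are likewise given with 2 lines pooled on each side. LAMB1 had a difference of 1.83, ITGB8 of 2.66, ITGA7 of -1.73 and ITGB5 of -1.05. ITGA4 had 3.36, with 3 of the 6 squamous controls, all SAS, and 1 of the 5 PCa controls well above background. ITGB3 had -3.18, ITGA10 -2.48, ITGA1 -2.31 and LAMA1 -1.92, with 1, 1, 3 and 3 of the 6 squamous controls well above background. The sizes for these 5 are therefore set partly against background signal. So is that of ITGB8, which was not well above background in the DU145 control of the miR-145 array. Its difference was 1.02 at the lowest over the other settings, and it was not called in 3 of 19. The lines pooled on a side also differed from each other. PC3 minus DU145 was -6.21 for LAMA1 (PC3 not well above background), -3.43 for ITGB3, 3.88 for ITGA1 and 2.89 for ITGA10. It was 4.81 for ITGB8, 2.63 for LAMB1 and 1.40 for ITGA7. FaDu minus SAS was -6.99 for ITGA4 (FaDu not well above background), -2.50 for LAMB1 and -2.07 for ITGB5. The pooled differences of these members therefore need not hold for each line.

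FaDu and SAS differed from each other in 10 of 21 members (3 higher in FaDu, 7 lower), beside 30.0%. ITGA4 was at 0.25 to 1.18 in the 3 SAS controls and not well above background in the 3 FaDu controls (at least 58.9-fold, limma adjusted p = 2.8e-06), and 2 further ITGA4 probes were also well above background in the 3 SAS controls and in none of FaDu. LAMB1 was at 2.75 to 3.49 in FaDu and 5.16 to 5.95 in SAS (-2.50 ± 0.31). ITGB5 had a difference of -2.07 ± 0.35 and ITGAV of -0.81 ± 0.22.

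Of the other members lower in FaDu, ITGA2 had -2.16 ± 0.60, LAMC1 -1.47 ± 0.33 and ITGA5 -1.24 ± 0.37. LAMA2 was higher in FaDu by 1.96 ± 0.43, ITGB7 by 1.28 ± 0.39 and LAMA4, by its brightest probe, by 0.83 ± 0.23. ITGA2 was not well above background in the FaDu control of the miR-375 array, nor LAMA2 in the SAS control of the si-LAMB3 array. Over the other settings ITGA2 shrank to as little as -0.58, with 4 of 11 not called, and LAMA2 to 0.50.

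PC3 and DU145 could be compared on both designs, with other arrays each time. They differed in 8 of 26 members on the first, beside 28.1% of all genes, and in 9 of 25 on the second, beside 22.5%. LAMA1 was lower in PC3, by at least 60.5-fold on the first design and with a difference of -4.62 ± 0.51 on the log2 scale on the second, with DU145 at 0.89 to 2.09 over both. ITGB3 had differences of -3.43 and -2.21 on the log2 scale and ITGAE of -1.08 and -1.56.

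Higher in PC3 on both designs were LAMB1 (2.63 ± 0.36 and 2.93 ± 0.28), ITGA7 (1.40 and 1.45), ITGA10 (2.89 and 1.08) and ITGB8. ITGB8 was higher by 4.81 ± 1.06 on the first design and by at least 33.2-fold on the second, where DU145 was not well above background. On the first design the DU145 control of the miR-145 array was not well above background for ITGB8 either. The difference there was 1.70 at the lowest over the other settings, and it was not called in 2 of 13. ITGA1 was called on the first design (3.88 ± 0.76) and not on the second, and LAMC1 (-1.73 ± 0.22) and ITGA5 (-1.10 ± 0.26) on the second alone, with -0.66 and -0.23 on the first.

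On the second design 786O differed from PC3 and DU145 in 17 of 27 members (11 higher, 6 lower), beside 35.7% of all genes. ITGAV was at 4.57 to 4.75 in its 3 controls and 2.36 to 2.70 in the 4 PCa controls (2.12 ± 0.15, limma adjusted p = 0.00029), ITGB3 at 2.93 to 3.54 and -2.16 to 0.29 (4.27 ± 0.22, limma adjusted p = 8.0e-05) and ITGB5 at 3.88 to 4.57 and 1.61 to 2.18 (2.34 ± 0.22, limma adjusted p = 0.00077).

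ITGB8 had a difference of 5.02 ± 0.53 and ITGB6 of 2.22 ± 0.22, but ITGB8 was well above background in 2 of the 4 PCa controls and ITGB6 in 1, and with normexp they had 3.04 and 0.38, the latter no longer called. LAMB1 was higher by 2.95 ± 0.21, ITGB7 by 1.55 ± 0.46, ITGA5 by 1.31 ± 0.20, LAMC1 by 1.25 ± 0.17, ITGA9 by 0.58 ± 0.17 and LAMA2 by at least 2.20-fold. Lower in 786O were ITGA2 (at least 15.9-fold) and LAMA1 (at least 16.1-fold), both not well above background there, and ITGB2 (-4.38 ± 0.22), LAMC3 (-2.72 ± 0.24), LAMA4 (-1.19 ± 0.28) and ITGA7 (-1.03 ± 0.15).

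A498, the other renal line, had 1 control on each design and is given by its values. Its ITGAV was at 5.54 and 5.55 and its ITGB3 at 3.78 and 3.64, in the range of 786O or above. LAMA1 was at 2.65 and 2.14 in A498, where 786O was at -3.47 on the first design and not well above background on the second. ITGAX, the α chain of a myeloid integrin, was at -1.08 and -0.93 in A498 and not well above background in any 786O control. LNCap had 1 control and no test. ITGA3 was at -3.31 there against 2.59 to 3.95 in the other lines of the first design, LAMB1 at -2.03 against 0.88 to 5.95 and ITGB1 at 0.67 against 0.81 to 4.38. By their brightest probes ITGA1, ITGA2, ITGA4, ITGB2, ITGB3, ITGB6 and ITGB8 were not well above background in LNCap. Both further ITGB2 probes were, however, well above background in both channels of the LNCap array.

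The members with little between-line difference or low signal complete the list. On the first design LAMA5 lay between 7.24 and 8.37 over the 7 lines by its brightest probe, whereas its other probe ran from -4.86 in 786O to a mean of 2.40 in SAS. LAMB2 lay between 2.12 and 4.18 and ITGA9 between -3.37 and -2.06. ITGA11 was at -5.05 to -3.00 there, ITGA2B, the platelet α chain, at -5.71 to -2.75 and ITGAM, a myeloid α chain, at -5.47 to -3.00, each with several controls not well above background. LAMB4 and ITGAD were not well above background in any control of the first design.

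**Figure D4:**
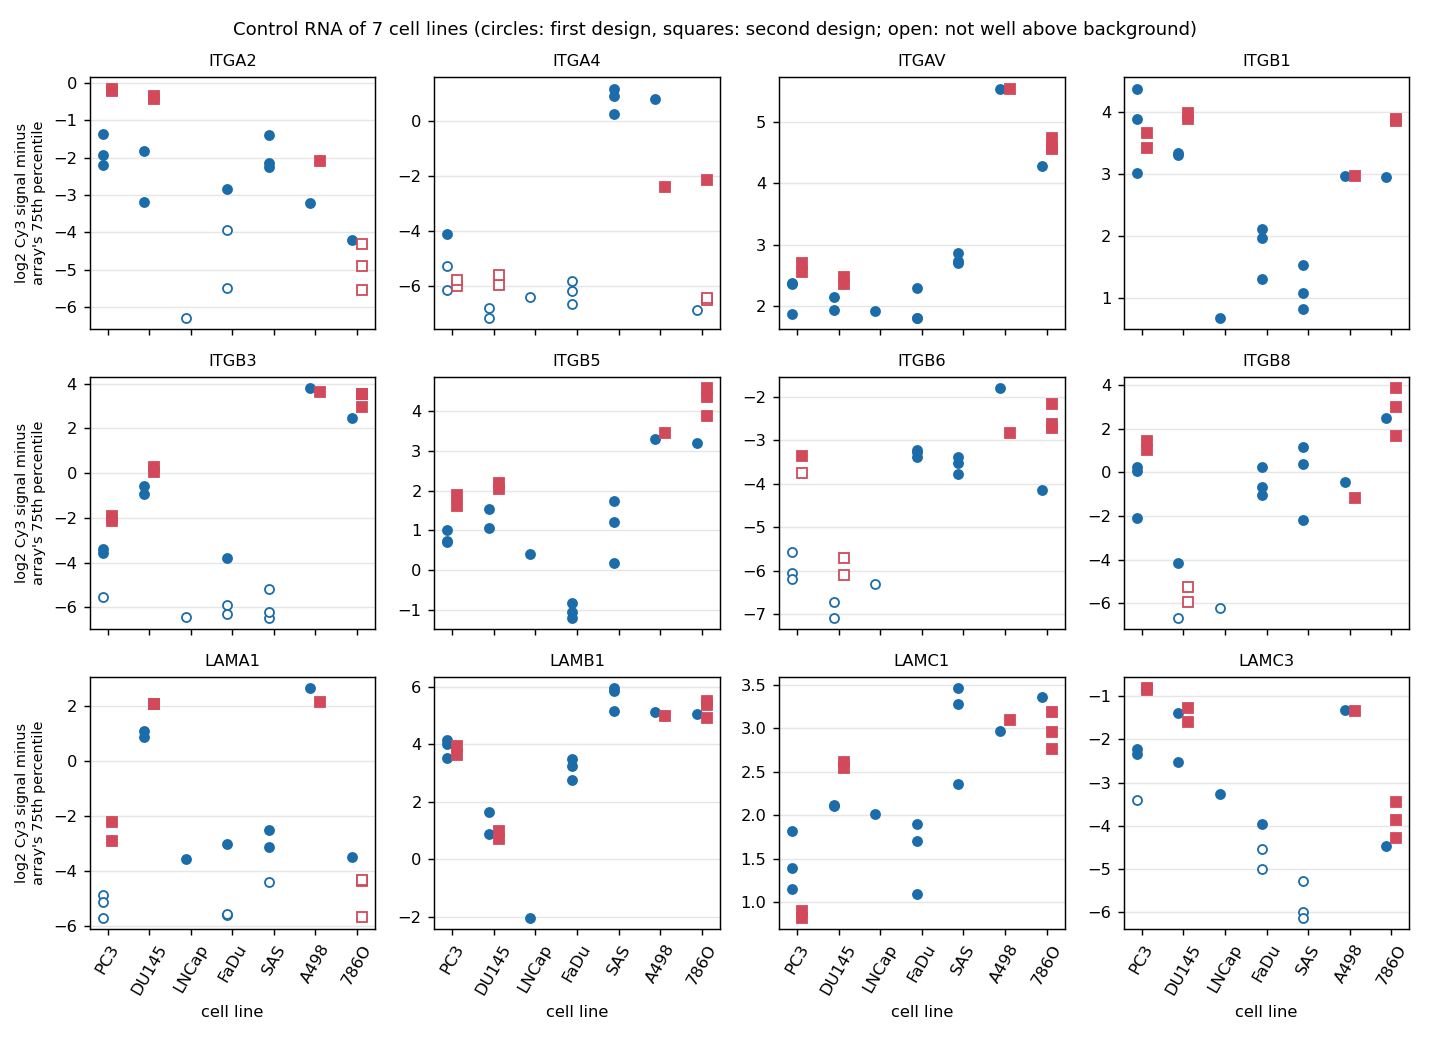
Control level (log2 Cy3 signal minus the array's 75th percentile) of 12 members by cell line, with circles for the first and squares for the second design and open symbols where the probe was not well above background, the 3 PC3 controls of the miR-23b, miR-24 and miR-27b arrays being averaged. ITGAV, ITGB3 and ITGB5 lie highest in 786O and A498, and ITGA4 in SAS and A498 on the first design.

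For a few members the probes of a gene did not tell the same story. LAMA4 had 4 probes, all on the reverse strand of chromosome 6 in hg19. The brightest, at chr6:112429141-112429200, is the most downstream, and it was nearly flat between lines, with means of -3.85 to -2.57 in the first design. The probes upstream of it, at chr6:112506440-112506499 and chr6:112537570-112537629, were at -1.10 and -1.36 in SAS and -1.13 and -0.86 in A498, and not well above background in DU145, LNCap, FaDu and 786O. The most upstream probe, at chr6:112574987-112575046, was at -2.02 in SAS, -0.85 in A498 and -0.81 in PC3.

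The 3 upstream LAMA4 probes were lower in FaDu, where they were not well above background in any control, than in SAS, opposite in sign to the 0.83 of the brightest. On the second design they were well above background in both PC3 controls and in neither DU145 control, where the brightest differed by 0.05. Under wogonin in SAS they were at -1.24, -1.35 and -1.05, each with both channels well above background. The brightest was at 1.04 there, with 1 channel not well above background. LAMA4 values by the brightest probe alone are therefore open to the choice of probe in sign.

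LAMB1 showed the reverse arrangement. Its brightest probe (chr7:107564411-107564470, hg19) gave differences of 1.83 to 2.95 in size between lines, whereas a further probe at chr7:107643398-107643457 differed by 0.02 to 0.35 in the same comparisons. ITGB2 had a probe at chr21:46327902-46327961, upstream of the brightest one at chr21:46305926-46305985, that was higher in PC3 than in DU145 by 2.84 and 3.86, where the brightest gave -0.95 and 1.01.

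**Figure D5:**
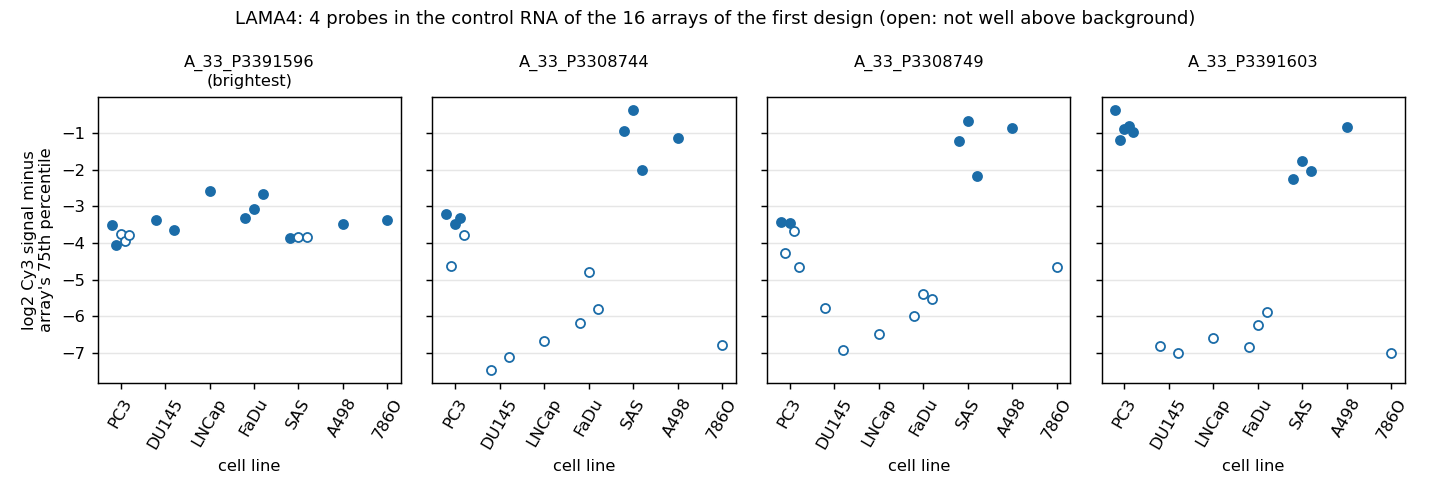
Control level (log2 Cy3 signal minus the array's 75th percentile) of the 4 LAMA4 probes in the 16 control channels of the first design, by cell line, with the brightest probe in the first panel, the others in order upstream and open symbols where the probe was not well above background. The brightest probe stays between -4.06 and -2.57 in all 7 lines, while the other 3 are high in SAS and A498 and near the floor in FaDu.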

How the data were processed

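RNA of treated (Cy5) and control (Cy3) cells was compared on 24 arrays. The authors scanned them and ran Agilent Feature Extraction 10.7.3.1, which subtracted background and normalized the dyes. They deposited a log10 ratio with the software's error and intensity values per spot and channel. The deposited series matrix held the same log10 ratios (largest difference 0). The number of arrays, 1 for each line and treatment, limits the precision.

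Log ratios were multiplied to the log2 scale. Control and outlier-flagged spots were left out and spots of a probe averaged. The software's flag for spots well above background was taken for a probe when it was set on a share of 0.5 or more of its spots. Limma 3.58.1 in R 4.3.3 fitted 1 coefficient per treatment over all arrays of a design against 0, with Benjamini-Hochberg adjustment over all probes measured on each array of the treatment and a limit of 0.05. Control levels were the log2 Cy3 intensity minus the array's 75th percentile, fitted with 1 coefficient per line, with the 3 alike PC3 controls averaged into 1. An "at least" fold set the bright channel against the higher of the dim signal and the lowest signal of any probe well above background on the array. Fits were tested on simulated data. Values are given for members called or past 1.0 in both channels, and for up to 4 called genes of each partner list. Of the values past 1.0 with 1 channel not well above background, only some are given. The members and lists were chosen with earlier results of these data known.

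The alternatives were normexp (offset 50) or no background correction, each with loess, median centring, subtraction of the mean over other treatments of the design or slide, the filter on dim probes, the mean over probes, the treatment's arrays alone, limits of 0.5 and 1.5 and leaving out each array. The probes of the first design were named by the later of its annotation issues, which renamed 2572 probes. The prostate luminal markers and the genes of laminin-332 and its receptor were also looked at as lists, and their full results are not reported here.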

Additional observations from a re-analysis of the deposited data

Results flagged for a closer look

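On the si-LAMB3 arrays, ITGA2 was at -0.56 in FaDu and 1.63 in SAS, and ITGB8 was at 0.52 in FaDu and -1.02 in SAS. They stood out because the value was past 1.0 in one line and past 0.5 the other way in the other, with both channels well above background, and they were the 2 cases of this kind among the members. With 1 array per line the difference was not tested. LAMB3 itself was at -2.50 in FaDu and -0.89 in SAS.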

How the results depend on the processing

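No paired analysis was possible because the labels give 1 replicate for each line and treatment and the 2 RNAs of an array already form its ratio. The members called for genistein were 4 as reported, 2 with normexp and loess, with no background correction and loess, or with the mean over the design's other treatments subtracted, and 0 with its own arrays alone. For miR-145 the 0 became 1 with normexp and loess, no background correction and loess, or the design mean subtracted (ITGA5), and 2 with the slide mean subtracted (ITGA5 and LAMA5). For si-LAMB3 the 4 became 1 with the design or slide mean subtracted, 2 without a filter on dim probes and 0 alone. For wogonin the 4 became 2 with the design mean subtracted, both channels required or no filter, 1 with the slide mean subtracted and 0 alone. For si-GOLM1 the 0 became 1 with either loess setting (LAMA5). Leaving out each array gave 0 to 4 for genistein (0 without PC3), 0 to 2 for miR-145, 1 to 2 for si-LAMB3, 0 to 0 for wogonin and 0 to 0 for the other 5 treatments, and a lone remaining array was assumed to vary like the other treatments. Of the 12 calls, LAMA5 was kept without DU145 and ITGB6 without either line, and the other 21 of 24 such refits lost the call. ITGB6 under si-LAMB3 was lost in 1 of its 11 alternatives, its own arrays alone. No call under a treatment changed sign. The 82 single values past 1.0 were 32 (14 higher, 18 lower) with normexp and loess and 37 (18 and 19) without background correction and with loess. They were 49 (22 and 27) with both channels required, 207 at a limit of 0.5 and 31 at 1.5. None of the 49 changed sign, but 37 of them moved by the software's error or more in at least 1 setting. Over these settings 71 refits moved by that much and 174 did not. The values that rested on 1 channel were not followed through the settings. Between lines, requiring each control of every line well above background left 4 of 12 squamous, 6 of 10 FaDu against SAS and 5 of 8 PC3 against DU145 calls on the first design. Leaving out each control gave 12 to 13, 5 to 9 (5 without the si-LAMB3 control of SAS), 4 to 8 (4 without the miR-145 control of DU145), 6 to 7 on the second design and 13 to 19 for 786O. LAMA4 in FaDu against SAS turned to -3.05 with the mean over its probes. Leaving out the PC3 controls of miR-23b, miR-24 and miR-27b, chosen after seeing the data, gave 14 and 8. The causes were not tested. The series matrix was not run apart, since its values are identical. Signal near background limits ITGA8, ITGAL, ITGAD, ITGAX and LAMB4 throughout, and dyes that were never swapped limit every ratio.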
